A study of Mus musculus with 17 samples.

Results

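RNA of DA1-3b cells that received a plasmid for the N-terminal p65/RelA fragment 1-361 was compared with RNA of cells that received a plasmid for the p65/RelA point mutant D361E. The arrays were chosen by source name alone: 3 arrays read exactly 1-361 and 4 read D361E, so the comparison rests on 7 of the 17 arrays of the series. DA1-3b is a mouse Bcr-Abl+ leukaemia line (labelled strain C3H eOuJ), cultured in DMEM with serum. Every group shares the Bcr-Abl+ background and a transfection, the endogenous Rela gene is the cells' own in all of them, and whether the transfected cells were pools or single clones is not given in the labels. The design text calls D361E non-cleavable and treats 1-361 as a fragment of p65. The other 10 arrays, WT p65 (4), the C-terminal fragment 362-549 (3) and both fragments together (3), entered the model to estimate the spread, and cells given a void plasmid, which the protocol also names, were not analysed here.

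Rela encodes p65, which with other Rel proteins forms the transcription factor NF-kB. Its N-terminal Rel homology domain binds DNA, pairs with other Rel proteins and carries the nuclear localisation signal, and its C-terminal part holds the transactivation domains. NF-kB dimers are held in the cytoplasm by IkB proteins, and genes that NF-kB switches on include its own inhibitors Nfkbia and Tnfaip3 and many chemokines. Replacing the aspartate at which a caspase cuts by glutamate keeps the charge and removes the cut, so D361E stands for full-length p65 and 1-361 for p65 without its C-terminal part.

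Levels are given as the log2 processed signal minus the log2 75th percentile of that array, so a level of 0 is the signal at that percentile, and differences are 1-361 minus D361E on the same log2 scale. The 75th percentile of the processed signal ran from 642.7 to 876.8 on the 1-361 arrays and from 668.4 to 898.7 on the D361E arrays. Pearson's r across genes lay between 0.986 and 0.989 among 1-361 arrays, between 0.968 and 0.992 among D361E arrays, and between 0.966 and 0.992 across the groups. No label says that replicates came from separate cultures, so the p-values cover array-to-array spread only, part of which may be technical. The precision is set by how few arrays there are. Of 10 myeloid markers chosen for DA1-3b, 6 were tested and 0 were called, and Cebpa and Kit were not well above background on any of the 7 arrays. In bulk RNA, fewer cells of a type and less RNA per cell cannot be told apart.

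Of 15259 genes tested, 156 (1.02%) differed between 1-361 and D361E at an adjusted p below 0.05 (limma, Benjamini-Hochberg over all genes): 81 (0.531%) were higher and 75 (0.492%) lower in 1-361. The 7 arrays of all 156 genes fell into 2 ranges without overlap, which was also true of 1514 of all genes tested (9.92%), 822 on the higher side (5.39%) and 692 on the lower side (4.54%). The median difference over all genes was 0.029. Among the called genes, 12 were not well above background on any 1-361 array and 11 on any D361E array, so their differences are bounds. Myl2, among the 12, was too dim in D361E for a bound, with means of -7.02 in 1-361 and -5.83 in D361E. With the slide as a fixed block 49 genes were called, and with another background correction (normexp) 29. A pair of slides held an array of each group, and within each of them all 156 genes differed in the fitted direction, as the absence of overlap fixes. Within slides 2 and 3 the difference was -0.86 and -1.66 for Tnfaip3, 4.42 and 3.02 for Trpc6, -1.52 and -1.23 for Hif1a, 2.60 and 2.40 for Fcer1g, and -1.79 and -2.14 for Acod1.

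**Figure D1:**
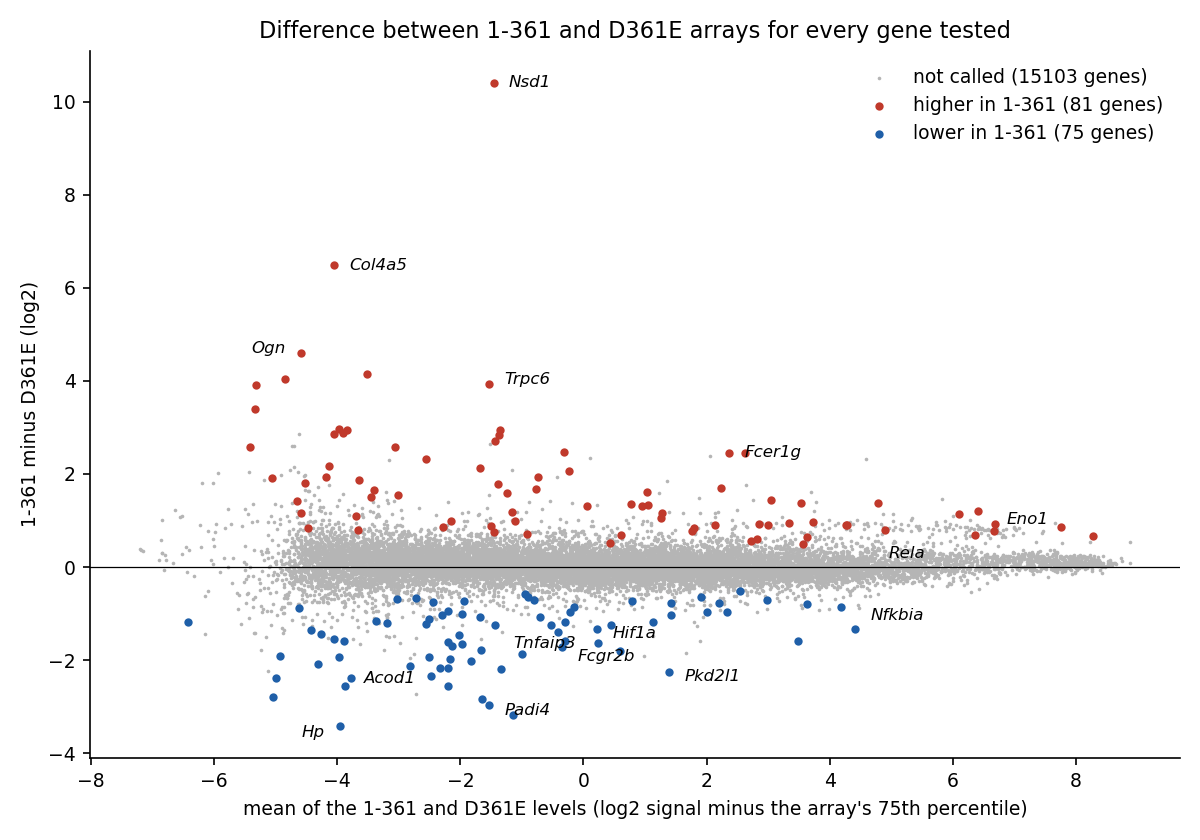
Each point is 1 gene: the x axis gives the mean of its 1-361 and D361E levels (log2 signal minus the array's 75th percentile) and the y axis the difference 1-361 minus D361E (log2). The 81 genes called higher (red) and the 75 called lower (blue) lie on both sides of 0 among 15259 genes, and Nsd1 and Col4a5 stand farthest above the rest.

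The other groups place the called genes further. Among the 81 genes higher in 1-361, the 1-361 arrays lay above all 14 other arrays for 37 genes, and the D361E arrays lay below all 13 others for 14 genes. Among the 75 genes lower in 1-361, the 1-361 arrays lay below all 14 other arrays for 9 genes, and the D361E arrays lay above all 13 others for 27 genes. Over all genes tested these 4 patterns were found in 0.492%, 0.315%, 0.334% and 0.4%. The 27 genes highest in D361E included Hif1a, Ccl3, Ccl6, Acod1, Padi4, Hp, Fcgr2b and Tyrobp. The WT mean was nearer the D361E mean for 53 of the higher calls and nearer the 1-361 mean for 28, and for the lower calls the split was 38 and 37. These counts describe the called genes and were not tested.

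Rela was not called: its levels were 4.73, 4.82 and 4.8 in 1-361, against 4.62, 4.79, 4.66 and 4.88 in D361E. The difference was 0.05 (SE 0.10, adjusted p = 0.969). The 1 Rela probe lies at chr19:5648070-5648129 (mm9), and whether the plasmids carry the sequence it reads is not given in the sources used here, so it does not check the labels. Of the other 3 subunits tested, Relb, Nfkb1 and Nfkb2 had differences of -0.25, 0.24 and 0.03, none of them called.

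Among the inhibitors and feedback genes of NF-kB, Tnfaip3 was the 1 of 14 called, where 0.492% of all genes were called lower. Tnfaip3 (A20) is a ubiquitin-editing enzyme that shuts NF-kB signalling off. Its levels were -1.98, -2.02 and -2.19 in 1-361, against -1.13, -0.82, -1.0 and -0.36 in D361E, a difference of -1.23 (SE 0.238, adjusted p = 0.0172). WT arrays were higher still, at -0.27, -0.42, -0.34 and -0.09, and 362-549 averaged -2.20. The call did not hold without any 1 of the 1-361 arrays or without D361E replicate 2 or 4, where the adjusted p reached 0.099. It was also lost with the slide as a block (adjusted p = 0.218), normexp (adjusted p = 0.164) and no scaling (adjusted p = 0.104). Nfkbia (IkB-alpha, which holds NF-kB in the cytoplasm) had levels of 4.01, 3.73 and 4.33 in 1-361, against 5.09, 5.11, 4.67 and 4.79 in D361E. Its groups did not overlap, and its difference of -0.89 (SE 0.216, adjusted p = 0.0774) missed the threshold. Nfkbid and Commd1 also had groups that did not overlap, with differences of -0.45 and -0.36 (adjusted p = 0.561 and 0.557). Such separation on the lower side was found in 4.54% of all genes tested. The 14 genes of this class ranged from -1.23 to 0.32 with a median of -0.16.

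The 250 bases before the RefSeq start of 4 of these genes are shown because Tnfaip3 and Nfkbia hold a kB consensus there and the called targets Ccl3 and Acod1 do not (RefSeq, build GRCm38.p6, gene strand, lower case, capitals marking a match to the kB decamer consensus on either strand). Tnfaip3 lies at chr10:19015411-19015660 on the minus strand, Nfkbia at chr12:55492648-55492897 on the minus strand, Ccl3 at chr11:83649379-83649628 on the minus strand and Acod1 at chr14:103046762-103047011 on the plus strand.
Tnfaip3: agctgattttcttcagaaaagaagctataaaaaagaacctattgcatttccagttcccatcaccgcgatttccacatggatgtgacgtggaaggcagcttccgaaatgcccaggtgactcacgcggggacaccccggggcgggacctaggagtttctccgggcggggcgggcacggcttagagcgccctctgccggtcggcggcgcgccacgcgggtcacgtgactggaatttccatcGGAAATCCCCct
Nfkbia: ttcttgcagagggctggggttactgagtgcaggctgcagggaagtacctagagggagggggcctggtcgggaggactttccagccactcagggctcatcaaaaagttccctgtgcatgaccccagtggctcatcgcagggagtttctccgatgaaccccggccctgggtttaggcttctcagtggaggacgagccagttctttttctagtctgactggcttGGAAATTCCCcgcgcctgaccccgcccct
Ccl3: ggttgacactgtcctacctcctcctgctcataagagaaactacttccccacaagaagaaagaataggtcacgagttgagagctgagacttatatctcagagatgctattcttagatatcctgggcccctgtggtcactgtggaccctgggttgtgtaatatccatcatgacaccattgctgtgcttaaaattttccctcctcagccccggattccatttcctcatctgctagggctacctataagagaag
Acod1: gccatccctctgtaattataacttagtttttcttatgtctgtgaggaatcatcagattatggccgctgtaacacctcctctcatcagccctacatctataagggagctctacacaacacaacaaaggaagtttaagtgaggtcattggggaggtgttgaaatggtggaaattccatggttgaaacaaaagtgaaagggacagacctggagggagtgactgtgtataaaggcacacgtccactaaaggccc
The match of Tnfaip3 begins 12 bases before the start and that of Nfkbia 29 bases before it. Of the 15259 genes, 9710 had these 250 bases in the RefSeq table, and 683 of them (7.03%) held a match. A gene with several RefSeq starts was counted if any start had a match, so more starts gave more windows. The stretches shown are those of the first start listed. The share was 6 of 43 (14%) for genes higher in 1-361, 5 of 58 (8.62%) for genes lower in 1-361 and 13 of 35 (37.1%) for the tested NF-kB target genes. A match describes letters in this window only.

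NF-kB target genes as a list held 4 falls and 0 rises among 46 tested, with a median difference of -0.25, beside 0.492% of all genes called lower and a median over all genes of 0.029. The 4 were Acod1, Ccl3, Ccl5 and Tnfaip3. Of the 46 differences, 13 were positive. Acod1 makes the metabolite itaconate in activated myeloid cells, and its levels were -3.49, -3.62 and -3.84 in 1-361, against -1.70, -1.13, -0.93 and -1.49 in D361E. It fell by 2.34 on the log2 scale (SE 0.21, adjusted p = 1.35e-05). WT lay with 1-361, at -3.19, -2.94, -3.62 and -3.0. Ccl3, a macrophage inflammatory chemokine, had levels of -3.75, -4.00 and -3.87 in 1-361, against -1.81, -1.15, -1.58 and -2.48 in D361E. It fell by 2.12 (SE 0.274, adjusted p = 0.000775), and WT was again low, at a mean of -4.17. Ccl5, a chemokine for T cells and monocytes, had levels of -3.03, -2.92 and -3.0 in 1-361, against -1.24, -1.29, -0.76 and -1.87 in D361E. It fell by 1.69 (SE 0.295, adjusted p = 0.00868), and here WT lay with D361E, at a mean of -1.35. The Ccl5 call was lost without 1-361 replicate 1 (adjusted p = 0.0517) and with the slide as a block (adjusted p = 0.103). With normexp the list had 0 calls, and the adjusted p was 0.153 for Acod1, 0.924 for Ccl3 and 0.162 for Ccl5. The list had 2 calls with the slide block and without 1-361 replicate 1, and 12 with the title-number run as a block.

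The calls by role stand beside 0.492% of all genes called lower. By role, the 10 cytokines and chemokines of the target list had a median of -0.85 with 2 calls and 1 positive difference. The median was -0.36 for 8 surface or adhesion genes with 0 calls, -0.10 for 13 survival genes with 0 calls, and -0.23 for 15 enzymes and transcription factors with 2 calls. Several inflammatory targets were lower in 1-361 by value without a call, among them Lta at -1.37 (adjusted p = 0.108), Ltb at -0.82 (0.138) and Tlr2 at -0.77 (0.142). Cd69, an early activation marker, went the other way at 0.84 (adjusted p = 0.128), with groups that did not overlap, as in 5.39% of all genes on the higher side. Tnf differed by -0.24 (adjusted p = 0.948), and the survival genes Bcl2l1, Xiap and Cflar by 0.18, -0.05 and 0.23, none called. Birc3 differed by 0.32 (adjusted p = 0.687), with 0.64 for a second probe, and Traf1 by -0.23 (adjusted p = 0.934). The 9 cytokines Il1a, Il1b, Il12b, Csf2, Csf3, Ccl2, Ccl20, Cxcl1 and Cxcl2 were not well above background on any of the 7 arrays. The 22 kinases and adaptors of the pathway list had 0 calls and a median of -0.05.

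**Figure D2:**
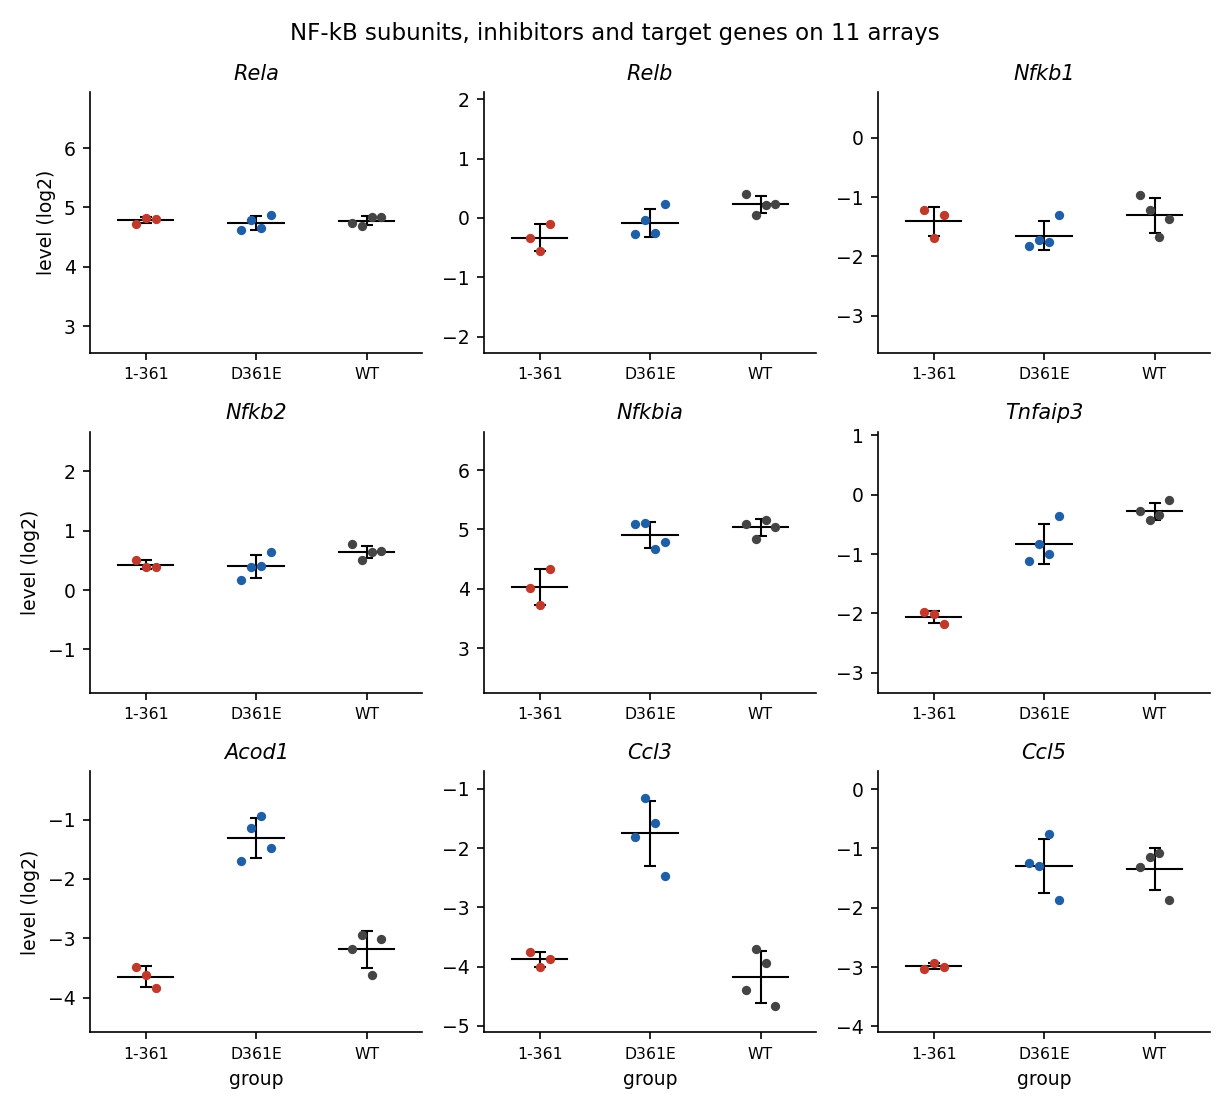
Levels (log2 signal minus the array's 75th percentile) of 9 NF-kB subunits, inhibitors and targets on the 3 arrays of 1-361, 4 of D361E and 4 of WT; points are arrays, and bars are the mean with its SD. Rela sits at 4.78 in 1-361 and 4.74 in D361E, Tnfaip3 and Ccl5 are low in 1-361 and high in D361E and WT, and Acod1 and Ccl3 are high in D361E alone of the 3.

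Of 19 chemokines and chemokine receptors tested, 5 fell and 0 rose, with a median of -0.33, where 0.492% of all genes were called lower. The count was 2 without any 1 of the 1-361 arrays, 2 with no scaling, 1 with the slide block and 0 with normexp. The median was -0.14 without 1-361 replicate 2, -0.56 without replicate 3 and 0.13 with no filter on dim probes. Beside Ccl3 and Ccl5 these were Ccl6, Cxcr4 and Ccl17. Ccl6, a myeloid CC chemokine, had levels of -2.44, -2.92 and -2.87 in 1-361, against -1.71, -1.18, -1.41 and -0.87 in D361E (difference -1.45, adjusted p = 0.0115). Cxcr4, the receptor for Cxcl12, had levels of -2.63, -2.77 and -2.63 in 1-361, against -1.75, -1.88, -1.78 and -1.51 in D361E (difference -0.94, adjusted p = 0.014). Ccl17 differed by -0.67 (adjusted p = 0.0391). The Ccl6 call was lost without 1-361 replicate 2 or 3, that of Cxcr4 without any 1 of the 1-361 arrays (highest adjusted p = 0.0791 and 0.0879), and both with the slide as a block (adjusted p = 0.218 and 0.278). Pf4, a platelet chemokine, went the other way by value at 0.88 (adjusted p = 0.0508).

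The gene that differed most was Nsd1, which encodes a histone lysine methyltransferase. Its levels were 3.43, 3.84 and 3.95 in 1-361, whereas it was not well above background on any of the 4 D361E arrays, nor on any WT array. The difference was at least 483-fold (adjusted p = 2.95e-10). At least N-fold means the bright group's mean over the higher of the dim signal and the lowest signal well above background on each array. Every such bound given here holds for the processed signal alone. With normexp the Nsd1 difference was 6.99 on the log2 scale, smaller than that bound but still called (adjusted p = 1.39e-05). The call rests on 1 probe at chr13:55419594-55419653 (mm9). The array's second Nsd1 probe, at chr13:55335377-55340095, was not well above background on any 1-361, D361E or WT array. The other 27 genes of the histone lysine methylation list had 0 calls and the list a median of -0.06.

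Col4a5, a basement-membrane collagen chain, and Ogn, a small leucine-rich proteoglycan, were also read only in 1-361 among the 7 arrays. Col4a5 had levels of -0.89, -0.84 and -0.71 in 1-361, at least 20.6-fold over D361E (adjusted p = 2.17e-10). With normexp its difference was 3.05 on the log2 scale, smaller than that bound but still called (adjusted p = 0.0475). Ogn had levels of -2.48, -2.18 and -2.21 in 1-361, at least 7.39-fold over D361E (adjusted p = 1.99e-07). Smco4, a small membrane protein, and Plaat5, a phospholipid-modifying enzyme, rose at least 3.5-fold and 2.88-fold (adjusted p = 1.56e-07 and 1.99e-07) over D361E arrays on which they were not well above background. With normexp the differences were 1.49 for Ogn, 1.23 for Smco4 and 0.92 for Plaat5, none called (adjusted p = 0.864, 1 and 1), so these bounds hold for the processed signal alone. Over all 14 other arrays, 7 of the higher calls were well above background in 1-361 only: Nsd1, Col4a5, Ogn, Smco4, Plaat5, Dnahc7b and 1 probe without a gene name. Of the 14 secreted matrix genes tested, 2 rose (Col4a5 and Ogn) and 2 fell, and the list median was 0.03, where 1.02% of all genes were called. Like every list here, this list was chosen with earlier results of these data known. Its share of calls therefore describes its members and was not tested. With normexp 1 of the 4 calls remained, that of Col4a5. Col4a6, the neighbouring collagen gene, differed by 0.17 (adjusted p = 0.959).

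Rab11fip5, which links Rab11 to endosome recycling, had levels of -1.62, -1.24 and -1.49 in 1-361, and was well above background on 1 of 4 D361E arrays. It rose by 4.15 (SE 0.598, adjusted p = 0.00206). Cpq, a peptidase, rose by 2.96 (SE 0.417, adjusted p = 0.00171) and was likewise read on 1 of 4 D361E arrays. With the slide as a block, the adjusted p was 0.07 for Rab11fip5 and 0.0757 for Cpq, and with normexp it was 0.141 and 0.55. Trpc6, a calcium-permeable channel, was read on all arrays: its levels were 0.68, 0.08 and 0.52 in 1-361, against -3.73, -3.60, -3.77 and -2.94 in D361E. It rose by 3.94 (SE 0.342, adjusted p = 1.01e-05). D361E was the low group of the 3 here, since WT arrays had -0.27, -0.54, -1.21 and -0.14.

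Igsf5, an immunoglobulin-like membrane protein, and B3galt5, a galactosyltransferase, lie next to each other on chromosome 16 and both rose. Igsf5 had levels of 0.24, -0.11 and 0.02 in 1-361, against -2.57, -2.51, -2.84 and -3.23 in D361E (difference 2.84, adjusted p = 2.8e-06). B3galt5 had levels of -1.76, -3.37 and -1.98 in 1-361 and was well above background on 1 of 4 D361E arrays. Its difference was 2.94 with an SE of 0.642 (adjusted p = 0.0403), and the call was lost without any 1 array but 1-361 replicate 2, up to an adjusted p of 0.245, and with the slide as a block (adjusted p = 0.247). B3gnt5, which starts lacto-series glycolipids, rose at least 6.55-fold (adjusted p = 1.13e-05), and its other probe was not well above background on any of these arrays. With normexp the adjusted p was 0.668 for B3galt5 and 0.293 for B3gnt5.

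**Figure D3:**
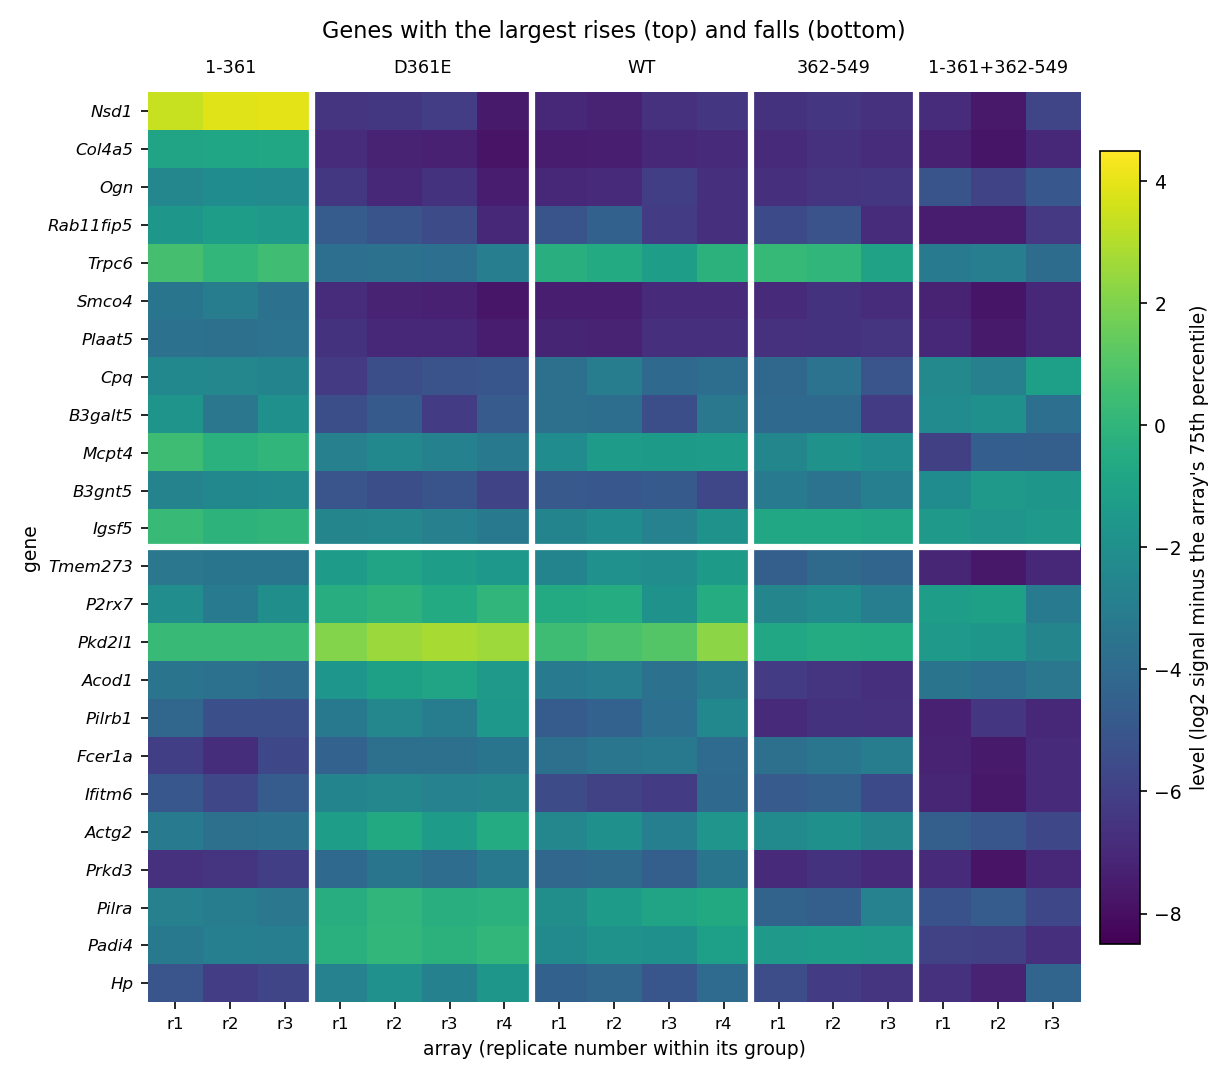
Colour gives the level (log2 signal minus the array's 75th percentile) of the 12 largest rises (upper block) and 12 largest falls (lower block) on all 17 arrays, ordered 1-361, D361E, WT, 362-549 and 1-361+362-549. Nsd1, Col4a5, Smco4 and Plaat5 are bright on the 3 arrays of 1-361 alone, while Trpc6 is dark in D361E and in 1-361+362-549, and Ifitm6 and Hp are brightest in D361E.

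The largest fall was that of Hp, haptoglobin, a haemoglobin-binding acute-phase protein. It was not well above background on any 1-361 array, against levels of -2.73, -1.92, -2.78 and -1.60 in D361E, a level at least 5.72-fold lower in 1-361 (adjusted p = 0.00577). With the slide as a block its adjusted p was 0.0563. Padi4, which converts arginine to citrulline in proteins, had levels of -3.23, -2.88 and -2.93 in 1-361, against -0.26, 0.13, -0.15 and 0.08 in D361E. It fell by 2.97 (SE 0.241, adjusted p = 5.47e-06). A second probe was not well above background on any 1-361 array and was on all 4 D361E arrays. WT lay between the groups, at a mean of -1.83. Of the 11 neutrophil granule and acute-phase genes tested, Hp was the 1 called, where 0.492% of all genes were called lower. The list median was -0.25, or -0.11 without 1-361 replicate 2 and -0.12 without replicate 3. With normexp the adjusted p of Hp was 0.805.

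Further large falls were those of Pkd2l1, Actg2, Prkd3, P2rx7 and Tmem273. Pkd2l1, a cation channel of the polycystin family, had levels of 0.24, 0.29 and 0.25 in 1-361, against 2.09, 2.56, 2.82 and 2.59 in D361E (difference -2.25, adjusted p = 0.00329). With the slide as a block its adjusted p was 0.0597. Actg2, smooth-muscle gamma actin, fell by 2.56 (adjusted p = 0.000461) and Tmem273, a membrane protein, by 2.17 (adjusted p = 0.000192). Prkd3, a protein kinase D, was at least 2.18-fold lower (adjusted p = 4.68e-05) by 1 of its 3 probes, and the other 2 were not well above background in either group. P2rx7, an ATP-gated channel, had levels of -2.14, -3.08 and -2.05 in 1-361, against -0.40, -0.08, -0.54 and 0.05 in D361E (difference -2.18, adjusted p = 0.0278). That call was lost without any 1 array except D361E replicate 3 (highest adjusted p = 0.173) and with the slide as a block (adjusted p = 0.33). A second probe kept for P2rx7 differed by -0.99. With normexp the adjusted p was 0.159 for Actg2, 0.513 for Tmem273, 1 for Prkd3 and 0.0739 for P2rx7. Its chromosome 5 neighbour P2rx4, a related channel that was singled out after its values were seen, had levels of 1.91, 1.84 and 1.78 in 1-361, against 2.77, 2.78, 2.89 and 2.79 in D361E (difference -0.96, adjusted p = 0.0029).

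Fc receptors and paired immunoglobulin-like receptors held 5 falls and 1 rise among 20 tested, and their median difference was -0.65, where 0.492% of all genes were called lower and 0.531% higher. The 6 calls became 3 with normexp and 10 with the title-number run as a block. Fc receptors bind antibody and signal through adaptors, and paired receptors combine an inhibitory with an activating form. The adaptor Fcer1g, the common Fc receptor gamma chain, went up: 3.72, 3.57 and 3.49 in 1-361, against 1.12, 1.13, 1.13 and 1.17 in D361E. It rose by 2.46 (SE 0.198, adjusted p = 5.39e-06), and WT was at the D361E level, with a mean of 1.03. Fcer1a, the IgE-binding chain that assembles with Fcer1g, was not well above background on any 1-361 array and on 3 of 4 D361E arrays it was. It was at least 1.96-fold lower in 1-361 (adjusted p = 0.000454), and with normexp its difference was -0.55 (adjusted p = 1). Fcgr2b, the inhibitory IgG receptor, had levels of -1.32, -1.05 and -1.23 in 1-361, against 0.35, 0.63, 0.60 and 0.46 in D361E (difference -1.72, adjusted p = 0.00125, or 0.0738 with normexp).

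Pilra, an inhibitory paired receptor, had levels of -2.84, -3.02 and -3.33 in 1-361, against -0.42, 0.03, -0.29 and -0.22 in D361E (difference -2.84, adjusted p = 0.00186). Other kept probes of Pilra differed by -2.31 and -3.17. A probe that was not kept differed by 0.11, with means of -4.25 in 1-361 and -4.37 in D361E. Pilrb1, the activating counterpart of Pilra 33.7 kb away, fell by 2.38 (adjusted p = 0.0288), and its probe may also read the near-identical Pilrb2. Pilrb1 was well above background on 1 of 3 arrays of 1-361. Its call was lost without 1-361 replicate 2 or 3 or D361E replicate 2 or 4 (highest adjusted p = 0.155) with the slide as a block (adjusted p = 0.256) and with normexp (adjusted p = 1). Tyrobp, the adaptor (DAP12) through which activating paired receptors signal, had levels of 3.74, 3.81 and 3.69 in 1-361, against 4.93, 5.23, 5.15 and 5.02 in D361E (difference -1.34, adjusted p = 0.0163). The receptors Fcgr3 and Fcgr4 differed by -0.18 and -0.04, neither called. Lilr4b, an immunoglobulin-like receptor outside the list, rose by 1.71 (adjusted p = 0.0252). Cd200r2, another such receptor, fell by 1.25 (adjusted p = 0.00397). Lilr4b and Cd200r2 were named after their values were seen.

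Mast cell genes went both ways. Mcpt4, a chymase of mast cell granules, had levels of 0.44, -0.19 and 0.08 in 1-361, against -2.84, -2.41, -2.79 and -3.25 in D361E. It rose by 2.94 (SE 0.343, adjusted p = 0.00028). At the same locus, Cma2 and the pseudogene Mcpt-ps1, named after their values were seen, rose by 1.59 (adjusted p = 0.0208) and 1.95 (adjusted p = 0.00397). Proteases of this locus are similar in sequence, so their probes may share signal. Of the 12 mast cell or basophil markers, 8 were tested, with 1 rise (Mcpt4) and 1 fall (Fcer1a), where 1.02% of all genes were called. Mcpt1 and Ms4a2 were not well above background on any of the 7 arrays. The summed linear level of the 8 tested markers, in units of the array's 75th percentile, was 55 to 58.3 in 1-361 and 35.6 to 61 in D361E. Cpa3 differed by 0.42 (adjusted p = 0.904) and Gata2 by 0.14 (adjusted p = 0.959).

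**Figure D4:**
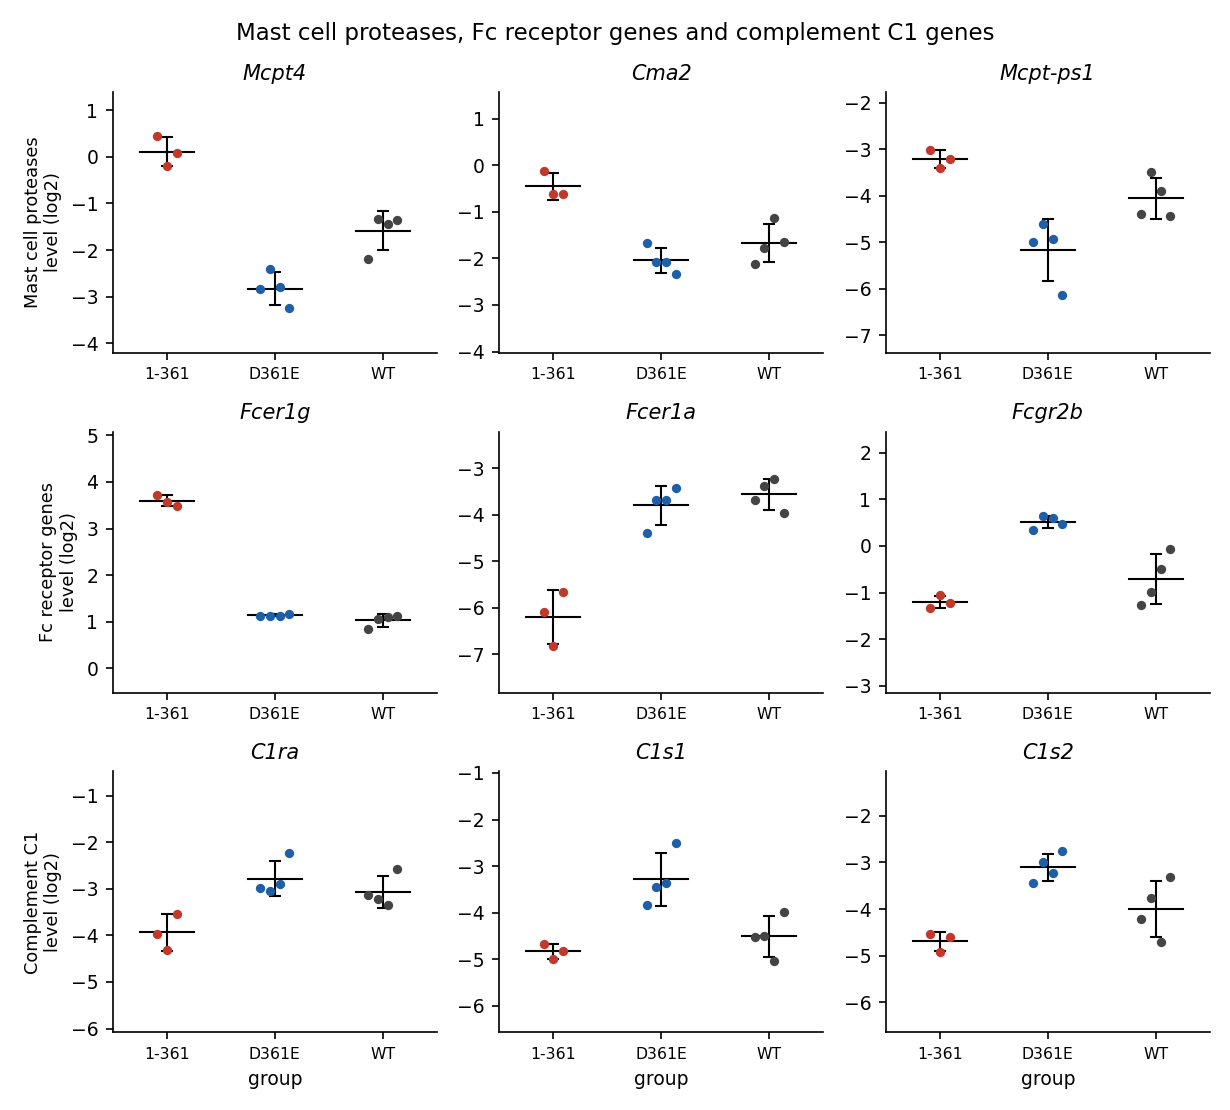
Levels (log2 signal minus the array's 75th percentile) of 3 mast cell protease genes, 3 Fc receptor genes and 3 complement C1 genes on the 3 arrays of 1-361, 4 of D361E and 4 of WT; points are arrays and bars the mean with its SD. The proteases and Fcer1g are highest in 1-361, Fcgr2b and the C1 genes are highest in D361E, and Fcer1a is low in 1-361 alone of the 3.

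Genes of the megakaryocyte and platelet lineage were mostly higher by value in 1-361, with 2 rises and 0 falls among 8 markers tested of 9 (0.531% of all genes were called higher), a median of 0.77 and 7 positive differences. Gp1ba, a platelet adhesion receptor chain, had levels of 1.75, 2.02 and 1.78 in 1-361, against 0.54, 0.87, 1.21 and 0.14 in D361E (difference 1.16, adjusted p = 0.0187). The D361E arrays lay below all 13 others here, and Gp1ba averaged 2.11 in WT, 1.66 in 362-549 and 2.81 in 1-361+362-549. The Gp1ba call was lost without any 1 of the 1-361 arrays or D361E replicate 1 (highest adjusted p = 0.121) with the slide as a block (adjusted p = 0.198) and with normexp (adjusted p = 0.217). The summed linear level of the 8 markers was 92.8 to 114 in 1-361, against 46.4 to 77.2 in D361E, and Vwf was not well above background on any of the 7 arrays. F13a1, the A chain of coagulation factor XIII and a gene chosen after its values were seen, rose by 2.33 (adjusted p = 8.05e-06). Its levels were higher still in 362-549, at -1.15, -0.70 and -0.97, against -1.27, -1.44 and -1.46 in 1-361. In 1-361+362-549 they were -6.19, -6.12 and -6.96, below the D361E mean of -3.72.

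Among markers of other cell types, Cd3g, a chain of the T cell receptor complex, rose by 2.16 (adjusted p = 0.0106). It was well above background on 1 of 4 D361E arrays, and 362-549 lay near 1-361, with means of -2.92 and -3.06. The mean of 1-361+362-549 was -7.13, below the D361E mean of -5.22, and no array of that group was well above background. The call was lost without 1-361 replicate 1 or 2 (highest adjusted p = 0.0662) with the slide as a block (adjusted p = 0.0597) and with normexp (adjusted p = 1). Of 12 T cell markers, 6 were tested with this 1 call, where 0.531% of all genes were called higher. Cd247, Cd8a, Cd8b1 and Zap70 were not well above background on any of the 7 arrays. The summed linear level of the 6 tested markers was 6.63 to 8.68 in 1-361 and 5.82 to 7.48 in D361E. Hbb-bh1, an embryonic beta-like globin, had levels of 0.46, -0.18 and 0.41 in 1-361, against -1.60, -1.53, -1.14 and -2.57 in D361E (difference 1.94, adjusted p = 0.015). It was called without any 1 array except 1-361 replicate 1 or 3 (highest adjusted p = 0.0997). It was not called with normexp (adjusted p = 0.226) or with the 7 arrays alone (adjusted p = 0.0565). Its mean was 0.07 in 362-549, near 1-361, and -3.39 in WT and -3.46 in 1-361+362-549, below D361E. The other 17 globin and haem genes had 0 calls, although globin probes can share signal between copies. Few markers of other cell types could be tested: 3 of 10 for B cells, 3 of 8 for NK cells, 6 of 10 for erythroid cells, 4 of 10 for neutrophils, 5 of 10 for macrophages, 3 of 8 for dendritic cells, 4 of 8 for eosinophils and 1 of 9 for fibroblasts, with 0 calls among those tested.

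Glycolysis and hypoxia genes were higher in 1-361 by value, with a median difference of 0.65 and 27 of 33 positive, the highest median of the 22 lists, and 3 passed the test, 1 up and 2 down, where 0.531% of all genes were called higher and 0.492% lower. The count was 1 with the slide block, with normexp, with the 7 arrays alone and without 1-361 replicate 1 or 2, and 10 with the title-number run as a block. Hif1a, the oxygen-regulated transcription factor of this pathway, fell: its levels were -0.52, -0.38 and -0.46 in 1-361, against 1.0, 0.79, 0.88 and 0.85 in D361E. The difference was -1.33 (SE 0.121, adjusted p = 1.54e-05), a second probe differed by -1.98, and WT arrays had -0.19, -0.48, -0.10 and -0.27. Slc16a3, a lactate exporter, fell by 0.72 (adjusted p = 0.03), which was not called once any single array of the 7 was left out (highest adjusted p = 0.158) and with the slide as a block (adjusted p = 0.362). Eno1, the glycolytic enolase, had levels of 7.18, 7.25 and 7.0 in 1-361, against 6.33, 6.26, 6.46 and 5.82 in D361E (difference 0.92, adjusted p = 0.0149). The array places that probe on chromosome 2 and RefSeq places Eno1 on chromosome 4, so it may read a copy; Eno1b, a near-identical gene, rose by 0.78 (adjusted p = 0.0391). The Eno1 call was lost without 1-361 replicate 1 or 2 (highest adjusted p = 0.0963) and with the slide as a block (adjusted p = 0.172). It was also lost with normexp (adjusted p = 0.327) and with the 7 arrays alone (adjusted p = 0.105). For Eno1 the D361E arrays lay below all 13 others, with means of 6.72 in WT, 7.05 in 362-549 and 6.81 in 1-361+362-549.

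The uncalled glycolytic genes included Slc2a1 (glucose transporter) at 1.61, Pgk1 at 0.95, Pfkl at 1.0 and Pdk1 at 1.01, with adjusted p of 0.741, 0.216, 0.106 and 0.396. The median of the 33 genes relative to the D361E mean was 0.43, 1.03 and 0.36 on the 1-361 arrays, against 0.08, 0.02, 0.46 and -0.48 on the D361E arrays. The 5 arrays whose titles are numbered 14 to 18 were each the highest of their group: 1-361 replicate 2 at 1.03, D361E replicate 3 at 0.46, and replicate 3 of WT, 362-549 and 1-361+362-549 at 0.68, 0.91 and 0.92. With the title-number run as a block the list median was 0.47, against 0.65 without it, and 10 genes of the list were called. The cholesterol and fatty acid list behaved alike in this respect, at 0.66 on 1-361 replicate 2 and -0.08 and -0.02 on the other 1-361 arrays. Its median of 0.22 became -0.06 without that array. In it Me1, malic enzyme, rose by 1.06 (SE 0.153, adjusted p = 0.00208), with an adjusted p of 0.0655 under the slide block.

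Of 37 integrated stress response genes, 2 fell and 0 rose, where 0.492% of all genes were called lower. Nupr1, a stress-induced nuclear protein, had levels of -3.21, -3.53 and -3.09 in 1-361, against -1.19, -1.39, -0.99 and -0.87 in D361E (difference -2.17, adjusted p = 0.000825). Cth, which makes cysteine from cystathionine, fell by 1.36 (adjusted p = 0.0396) and was well above background on 1 of 3 arrays of 1-361. The Cth call was lost without 1-361 replicate 1 or 3 or D361E replicate 2, 3 or 4 (highest adjusted p = 0.245) and with the slide as a block (adjusted p = 0.282). Atf4, which drives this response, differed by -0.01 (adjusted p = 0.996), and the list median was -0.15, or -0.05 without 1-361 replicate 2 and -0.07 without D361E replicate 4. The list had 1 call in each setting that lost Cth. The 21 genes of the unfolded protein response had 0 calls and a median of 0.17, or 0.012 without 1-361 replicate 2.

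Among 43 interferon-stimulated genes, 1 rose and 2 fell, where 1.02% of all genes were called, and the median was -0.02. The list had 0 calls with normexp, with the slide block and without 1-361 replicate 2. Isg20, an exonuclease that degrades viral RNA, had levels of 3.68, 3.95 and 3.65 in 1-361, against 2.58, 2.24, 2.56 and 1.95 in D361E (difference 1.43, adjusted p = 0.00817). WT was nearer 1-361, at a mean of 3.55. Ifitm6, of the interferon-induced transmembrane family, was at least 4.48-fold lower in 1-361 (adjusted p = 0.00586), and Gbp2, a guanylate-binding GTPase, at least 2.34-fold lower (adjusted p = 0.0344). Neither was well above background on any 1-361 array. Isg20 and Ifitm6 lost their calls without 1-361 replicate 2 (adjusted p = 0.0633 and 0.0504), and Gbp2 without any 1 array except D361E replicate 3 (highest adjusted p = 0.196). With the slide as a block their adjusted p were 0.103, 0.0597 and 0.282.

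Inter-alpha-trypsin inhibitor heavy chains and complement C1 proteases each held falls. Itih4 had levels of -1.99, -1.94 and -1.87 in 1-361, against -0.09, 0.03, 0.11 and -0.31 in D361E (difference -1.87, SE 0.126, adjusted p = 7.11e-07), by 1 of its 2 probes, the other being not well above background. Itih1, 27.3 kb away, was at least 3.18-fold lower in 1-361 (adjusted p = 0.0144), a call lost without 1-361 replicate 1 or 2 or D361E replicate 2 (highest adjusted p = 0.104) and with the slide as a block (adjusted p = 0.128). Itih3 differed by -1.21 (adjusted p = 0.0517). With normexp the adjusted p was 0.0566 for Itih4 and 1 for Itih1. C1ra, C1s1 and C1s2, named after their values were seen, encode the serine proteases of the C1 complex. C1ra differed by -1.15 (adjusted p = 0.0209), and C1s1 and C1s2, near-identical copies, were at least 2.76-fold and 2.99-fold lower in 1-361 (adjusted p = 0.00868 and 0.00905).

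Some called genes were neighbours. Of 129 called genes with an ordinary symbol and a probe position, 19 lay within 100 kb of another, in 11 pairs, and 10 of the pairs changed the same way. They comprised Ccl5, Ccl6 and Ccl3 on chromosome 11, Mcpt-ps1, Cma2 and Mcpt4 and also Itih4 and Itih1 on chromosome 14, and C1ra, C1s1 and C1s2 on chromosome 6. The others were Pilra with Pilrb1 and P2rx7 with P2rx4 on chromosome 5, and B3galt5 with Igsf5 on chromosome 16. The pair that went opposite ways was Cd52, which was lower, and Ubxn11, which was higher, on chromosome 4. Genes in a family share sequence and position, so these pairs are a description and were not tested.

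The lists that follow showed 0 calls: 41 cell cycle genes (median -0.08), 28 genes of the BCL2 family and caspases (-0.01), 20 of the TNF superfamily (-0.11), 19 immediate early genes (0.19), 20 genes of the p53 pathway (-0.07), 23 integrins and adhesion genes (0.17), 19 MHC and costimulation genes (0.19) and 9 stefin and cystatin genes (0.38). Among single genes without a call, Mki67 differed by 0.16, Cdkn1a by 0.15, Bcl2 by -0.46, Mcl1 by -0.02 and Trp53 by 0.03. Itgax had the lowest difference of the adhesion list, at -2.73 (adjusted p = 0.176).

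**Figure D5:**
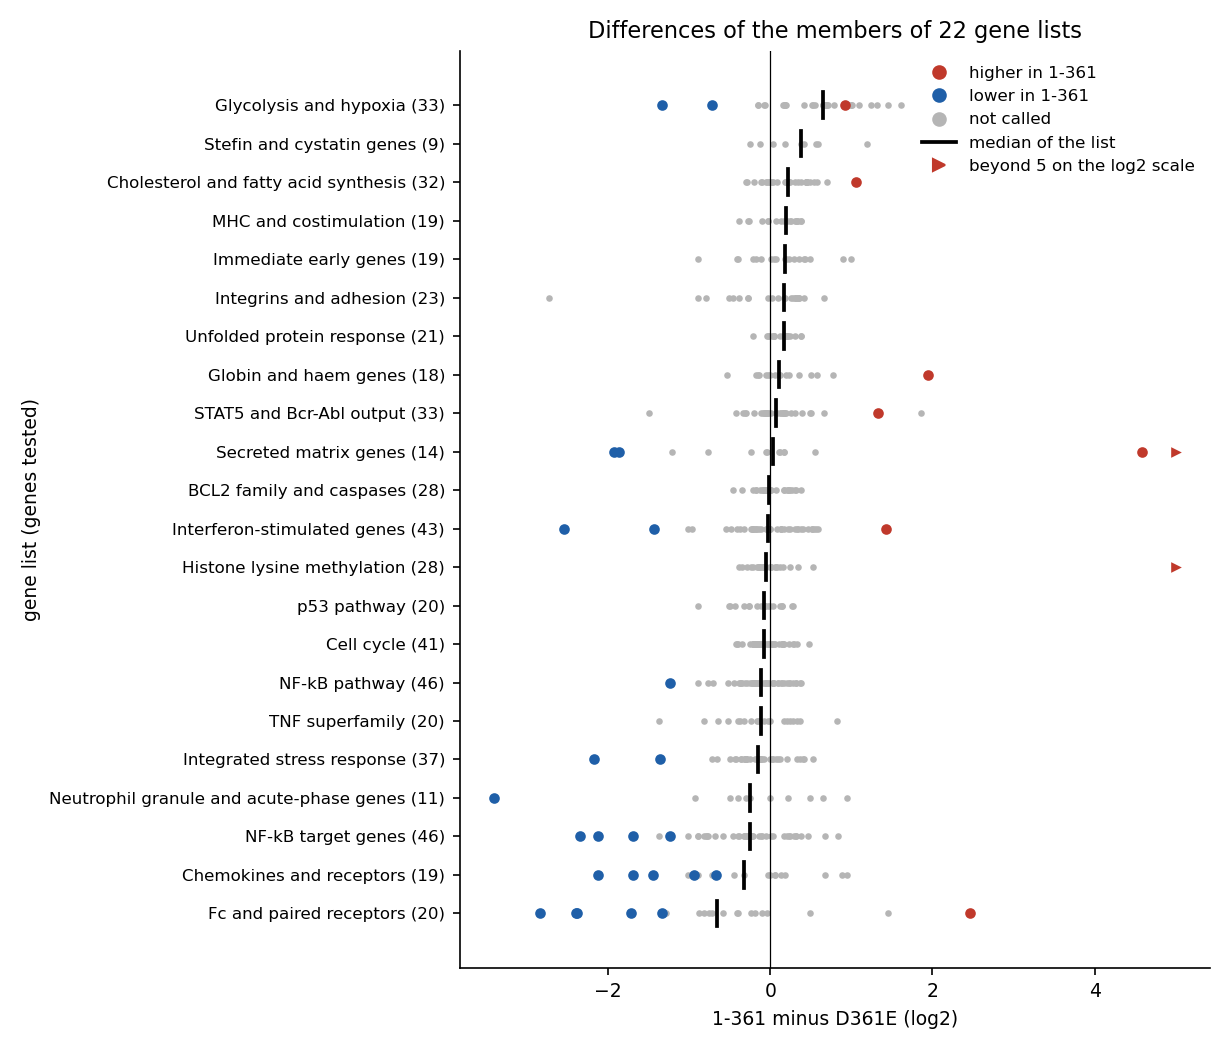
Each point is a gene of the list named at the left (genes tested in brackets), placed at its difference 1-361 minus D361E (log2); coloured points were called, and the black tick is the list's median. Medians run from -0.65 for Fc and paired receptors to 0.65 for glycolysis and hypoxia genes; Col4a5 and Nsd1 lie beyond the axis and are drawn as arrows at 5.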

How the data were processed

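One-colour Agilent arrays (design 026655) measured RNA of 17 samples. The deposited files hold spot intensity as processed signal from Agilent Feature Extraction 10.7.3.1, per the submitters' processing notes and the file headers, background-subtracted on the scanner's side and not normalised between arrays. Probe positions are mm9 per the file headers.

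From these deposited intensities, control spots and 3851 outlier spots over the 17 arrays were left out, spots of a probe were averaged, and the log2 signal minus each array's log2 75th percentile was taken. Of 39429 probes, 27508 were named through RefSeq accessions and 11921 kept the array's name. A probe was kept if all arrays of any 1 group read it well above background (19774 probes), and the brightest probe stood for each symbol, which gave 15259 genes. No probe was saturated. One model over the 5 groups (limma 3.58.1 in R 4.3.3, lmFit and eBayes, 12 residual degrees of freedom, with data.table version 1.17.8 for reading) gave 1-361 minus D361E, with Benjamini-Hochberg adjusted p-values over all genes and a threshold of 0.05. The fit was tested on simulated data.

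Groups came from the source names. The arrays lie on 6 slides, of which 2 hold both groups, and were scanned on 1 day. The members and lists were chosen with earlier results of these data known. Named genes were the NF-kB subunits and inhibitors with Traf1 and Birc3. They also included the 12 largest rises and 12 largest falls among called genes with an ordinary symbol and groups that did not overlap. Up to 4 called members of each list were added. Other genes, such as uncalled list members and neighbours of called genes, were chosen after their values were seen. Alternatives were quantile normalisation, no scaling, normexp (offset 50), other filters, the mean of probes, the 7 arrays alone, slide and title-number run as blocks, and leaving out each array. One called gene that the rule names is not reported here.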

Additional observations from a re-analysis of the deposited data

Results flagged for a closer look

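In groups of 4 arrays, Dixon's test set 1 array apart in 4 of 128 groups of named-gene levels, fewer than the 1 in 20 that chance gives. Fcer1g, the Fc receptor gamma chain, was at 1.17 on D361E replicate 4, against 1.12 to 1.13 on the other D361E arrays. The mast cell chymase Mcpt4 was at -2.2 on WT replicate 1, against -1.44 to -1.33 on the other WT arrays. The glycosyltransferase B3gnt5 was at -5.72 on WT replicate 4, against -4.96 to -4.82 on the other WT arrays. The ATP-gated channel P2rx7 was at -1.81 on WT replicate 3, against -0.56 to -0.43 on the other WT arrays.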

How the results depend on the processing

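Against 156 genes called, 91 were called with no scaling, 29 with normexp, 97 when every array had to be above background, 98 with the 7 arrays alone, 49 with the slide as a fixed block and 462 with the title-number run as a block, of which 153 were among the 156. Leaving out 1 array gave 81 to 136 calls, with 81 without 1-361 replicate 1, 81 without replicate 2 and 94 without replicate 3. The causes were not tested. Of the 45 named genes called, all kept their sign in each setting that fitted them; 24 kept the call with the slide block, 13 with normexp and 28 in every leave-one-out fit. The 11 called in every setting that fitted them included Nsd1, Col4a5, Trpc6, Mcpt4, Igsf5, Padi4, Pilra, Nupr1, Hif1a and Fcer1g. Nfkbia was called with the run block alone (adjusted p = 0.0456).

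Uncalled differences near 0 changed sign. With the run block the Nfkbib difference was 0.0495 and the Tnip2 difference -0.0303. Over the fits without 1 array, the Nfkbib difference ran from -0.155 to 0.086, the Tnip2 difference from -0.0614 to 0.247, the Nfkb2 difference from -0.0483 to 0.11, the Otulin difference from -0.0608 to 0.167 and the N4bp1 difference from -0.196 to 0.0769. The labels give no shared replicate numbers: arrays of 1 title-number run had deviations correlated at 0.53, -0.11 and 0.52, and 1-361 replicate 1 correlated best with D361E replicate 4 (0.37), of another run. Genes not above background in a group have bounds at most.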
